A study of Mus musculus with 12 samples.

Results

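The Sm, LSm and snRNP protein genes are the protein-coding genes whose name starts with Lsm and a digit, with Snrp or with Snrnp. The rule uses names and biotype, not values, and it found 32 genes among 22046 protein-coding genes and 54532 genes in all. A further 3 genes with such names are processed pseudogenes and were not counted. Limb buds of E12.5 mouse embryos were compared between a conditional Mettl14 knockout (cKO, genotype Mettl14 flox/flox) and a heterozygous control (cHet, Mettl14 wt/flox), so the controls carry 1 floxed allele as well. Mettl14 encodes a subunit of the methyltransferase that places N6-methyladenosine on RNA. From each genotype, RNA of the cytoplasmic fraction (input) and RNA of polysomes purified from it on a sucrose gradient (polysome) were sequenced, with 3 libraries in each of the 4 groups. The labels call the libraries biological replicates. They do not say how many embryos each holds, and the sources used here give neither the Cre driver nor the floxed exons.

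Small nuclear ribonucleoproteins (snRNPs) are the RNA and protein particles that make up the spliceosome, which removes introns from pre-mRNA. The Sm proteins form a ring around the U1, U2, U4 and U5 snRNAs, and related LSm proteins form rings that hold U6 snRNA in the nucleus or promote mRNA decapping and decay in the cytoplasm. U7 snRNP, whose ring contains the special proteins Lsm10 and Lsm11, cuts the 3′ end of histone pre-mRNA, and U11 and U12 snRNPs serve the minor spliceosome.

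Depth was 10349912 to 30068823 assigned reads per library, and a member had at least 128 reads in any library. In a principal component analysis of 13610 genes, cKO polysome replicate 1 stood apart from the other polysome libraries on the first component. It lay between the fractions, at 3.97, with the other polysome libraries at 35.5 to 53.8 and the input libraries at -41.5 to -36.2. Replicate 3 of cKO input stood apart on the second component (63.0, the other inputs -22.5 to -0.49). Values without these libraries are given beside the results they moved most. Mettl14 was lower in each cKO input library (1.26 to 3.32 FPKM) than in each cHet input library (4.03 to 4.08 FPKM), while the polysome groups overlapped (2.73 to 3.29 and 2.83 to 3.07 FPKM). The limb mesenchyme markers, among them Prrx1, Twist1 and Msx1, were all present, and 0 of 13 were at 0 in all libraries.

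Every member was expressed. Mean FPKM over the 12 libraries (fragments per kilobase of listed gene length, scaled to library depth) ran from 2.14 for Snrnp48 to 260 for Lsm4. All 32 genes passed the filter on low values in each comparison. The listed length can exceed that of the representative transcript: 10129 against 1785 bases for Snrnp48, and 6521 against 758 for Snrpc. For Lsm11 both are 6453 bases. The order of genes by FPKM therefore also depends on the length used. Below Lsm4 came the Sm core genes: Snrpd1 averaged 228 FPKM, Snrpb 179, Snrpd2 156, Snrpg 142, Snrpe 138, Snrpf 133 and Snrpd3 93.4. Snrpn, the paralog of Snrpb known for expression in neural tissue and for genomic imprinting, averaged 11.99 FPKM. The LSm ring genes spread more widely, from Lsm1 at 19.3 FPKM to Lsm4, and the lowest members were in U11/U12, U7 and U5 particles (Snrnp48, Lsm11 at 6.52, Snrnp35 at 9.69 and Snrnp200 at 9.73 FPKM). The ranges over libraries of neighbours in this order overlapped in all cases but the last, in which Lsm11 (5.13 to 8.96 FPKM) lay above Snrnp48 (1.29 to 2.82). Snrpg, for example, ran from 101 to 206 FPKM and Snrpe from 79.5 to 217.

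**Figure D1:**
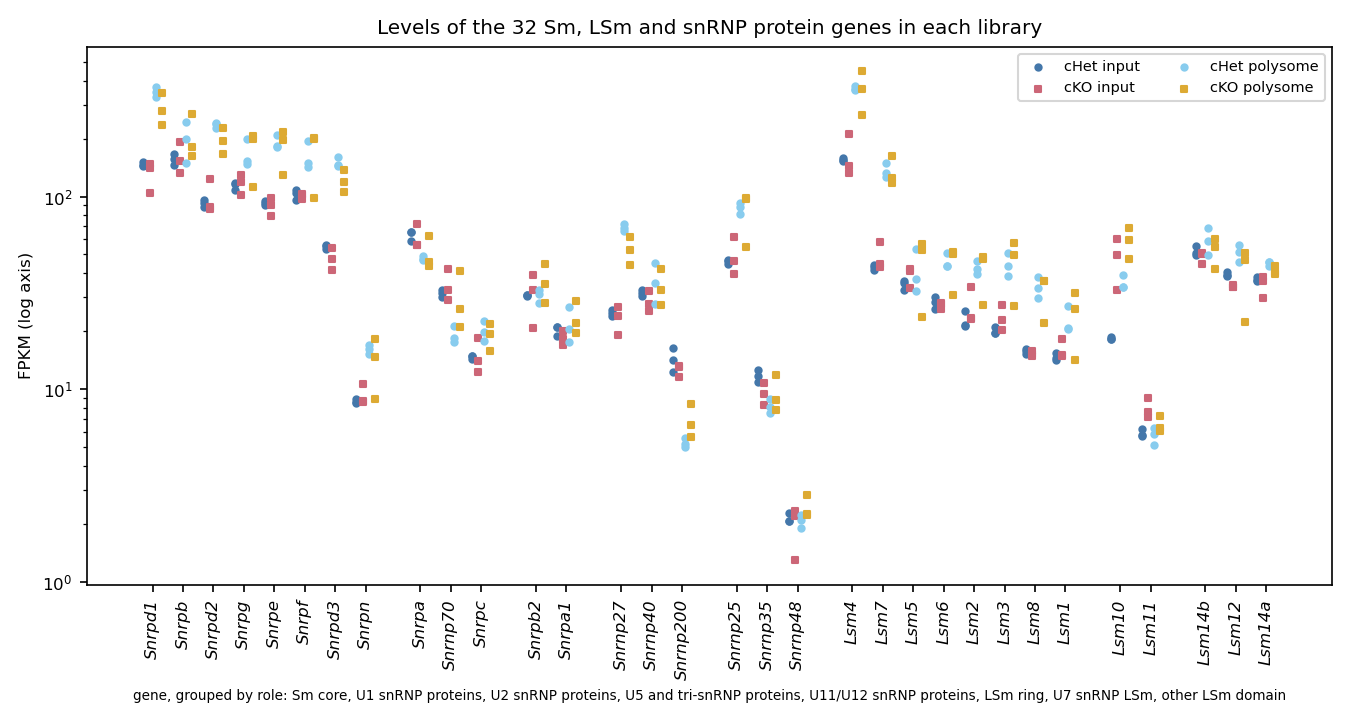
FPKM (log axis) of each of the 32 genes in each of the 12 libraries, 1 point per library, with genes grouped by particle and ordered by mean level within a group. Most Sm core genes sit near or above 100 FPKM, Snrnp48 sits lowest, and the polysome points of many short Sm and LSm genes lie above their input points.

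The leading gene of each particle gives the scale. In cHet input, Snrpd1, a subunit of the Sm ring, was at 143, 152 and 145 FPKM in replicates 1 to 3. Snrpa, the U1 protein that binds a stem-loop of U1 snRNA, was at 65.6, 65.7 and 59.1 FPKM, and Snrpb2, the U2 protein related to it, at 30.7, 30.6 and 30.3 FPKM. These cHet values lie close together. The median coefficient of variation over the 32 genes was 3.98% in cHet input and 8.58% in cHet polysome RNA, against 13.1% in cKO input and 22.5% in cKO polysome RNA. Without the library that stood apart, the cKO values were 5.79% and 9.35% over 2 libraries each. Lsm14b, which has an LSm domain and belongs to a family of mRNA-binding translational regulators, was at 50.7, 49.5 and 55.1 FPKM in cHet input and at 44.7, 50.1 and 51.1 in cKO input, and those groups overlapped.

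For 12 of the 32 genes, over 10% of the transcript is found unchanged in another gene, so that reads may be shared. Of the stretches of 50 bases in the Lsm7 transcript, 62.8% occur unchanged in a transcript of another gene, chiefly the processed pseudogene Gm10146, itself listed at 50.4 to 189 FPKM. The share was 44.0% for Lsm5, 28.4% for Snrpe, 26.7% for Snrpc, 24.3% for Snrpn, 22.5% for Snrpa, 21.3% for Snrpf, 18.2% for Lsm3, 18.1% for Snrpg, 13.8% for Snrpd1, 12.6% for Lsm12 and 11.7% for Snrpd2. The sources used here do not say how multi-mapping reads were assigned, and the levels of these genes are uncertain. Lsm10, Lsm4, Snrpd3 and Snrnp200 share 0% with any other gene, and Snrpb shares 0.0899%, none of it with its paralog Snrpn. Gucd1, at up to 12.9 FPKM, overlaps Snrpd3 on the opposite strand by 422 bases, and without a stated strand setting their reads cannot be told apart there.

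The comparison of cKO with cHet input asks whether loss of Mettl14 changed the cytoplasmic RNA of these genes. Of the 32 genes, 0 passed an adjusted p of 0.05 by limma (0% of all genes tested, 0 of 12977), and 0 passed by voom on read counts recovered from FPKM. At an unadjusted p under 0.05, 2 genes were higher and 0 lower, while 10.4% of all genes were higher and 4.53% lower by that rule. The 2 genes were Lsm10 and Lsm11, the proteins particular to the U7 snRNP ring. In bulk tissue, fewer cells of a type and less RNA per cell cannot be told apart.

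Lsm10 (ENSMUSG00000050188, mm10 chr4:126096623-126098584, plus strand) was at 18.7, 18.3 and 18.1 FPKM in cHet input and at 49.9, 32.5 and 60.3 FPKM in cKO input. Every cKO input library lay above every cHet one, and replicate 2 was the lowest of the 3 cKO values. The ratio of the means was 2.59, and the difference was 1.32 ± 0.22 on the log2(FPKM + 0.1) scale (SE; 95% interval 0.81 to 1.84; limma adjusted p = 0.141). That adjusted p was the lowest of the comparison and was shared by many genes; by unadjusted p Lsm10 ranked 43 of 12977. The call depended on the libraries fitted: the adjusted p was 0.0281 with all 12 libraries in 1 fit, 0.0392 without cKO input replicate 2 and 0.0420 without cKO input replicate 3.

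In polysome RNA Lsm10 was at 34.1, 39.2 and 33.7 FPKM in cHet and at 47.1, 59.6 and 68.5 in cKO. Again the 2 groups did not overlap, with a log2 difference of 0.70 ± 0.18 (SE; limma adjusted p = 0.113), and the adjusted p was 0.0416 without cKO polysome replicate 1. Lsm10 was thus higher in all 3 cKO libraries of each fraction, without passing the test in either of the 6-library comparisons.

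Lsm11 (ENSMUSG00000044847, mm10 chr11:45928269-45944935, minus strand), whose protein also binds the histone processing machinery, was at 5.77, 5.70 and 6.22 FPKM in cHet input and at 7.63, 7.15 and 8.96 in cKO input. The groups did not overlap, and the log2 difference was 0.41 ± 0.13 (SE; limma adjusted p = 0.235). In polysome RNA the values were 5.84, 5.13 and 6.27 FPKM in cHet and 7.20, 6.05 and 6.28 in cKO. There the groups overlapped and the log2 difference was 0.18 ± 0.14 (SE; limma adjusted p = 0.469), or 0.11 without cKO polysome replicate 1.

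**Figure D2:**
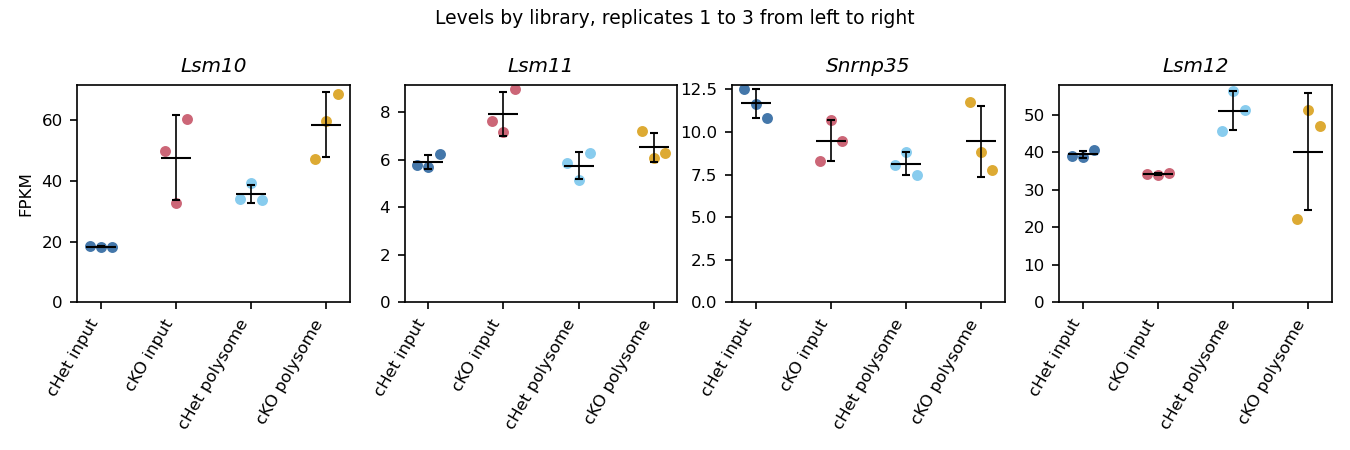
FPKM of Lsm10, Lsm11, Snrnp35 and Lsm12 in each library, points being replicates 1 to 3 from left to right in each of the 4 groups, with the mean (long bar) and SD (whiskers, n = 3). Lsm10 is higher in every cKO input library (32.5 to 60.3) than in every cHet input library (18.1 to 18.7).

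The input groups did not overlap for 4 genes (29.3% of all genes), of which Lsm10 and Lsm11 were higher in cKO, and Snrnp35 and Lsm12 lower. Snrnp35, a U11 protein of the minor spliceosome, was at 12.53, 11.6 and 10.8 FPKM in cHet input and at 8.28, 10.7 and 9.46 in cKO input, a log2 difference of -0.30 ± 0.14 (SE; limma adjusted p = 0.352). The highest cKO library was only just below the lowest cHet library. Lsm12, an LSm domain protein outside the rings, was at 39.0, 38.7 and 40.4 FPKM in cHet input and at 34.1, 34.0 and 34.6 in cKO input. Both groups were tight, yet the log2 difference of -0.20 ± 0.09 (SE; limma adjusted p = 0.365) did not pass the test.

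The other 28 genes overlapped between the input groups. The median log2 difference of the 32 genes was -0.03 and that of all genes -0.01. The Sm core genes lay between -0.22 (Snrpd3) and 0.10 (Snrpn), and the LSm ring genes between -0.04 (Lsm6) and 0.23 (Lsm3). The 95% interval for Lsm8 was -0.28 to 0.20 and that for Snrpf -0.26 to 0.21, while for Snrpb2 it was -0.56 to 0.50. Snrpb2 was at 39.2, 32.6 and 20.8 FPKM in cKO input, with the low value in the library that stood apart. Its log2 difference was -0.03, and 0.23 without that library (limma adjusted p = 0.148).

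**Figure D3:**
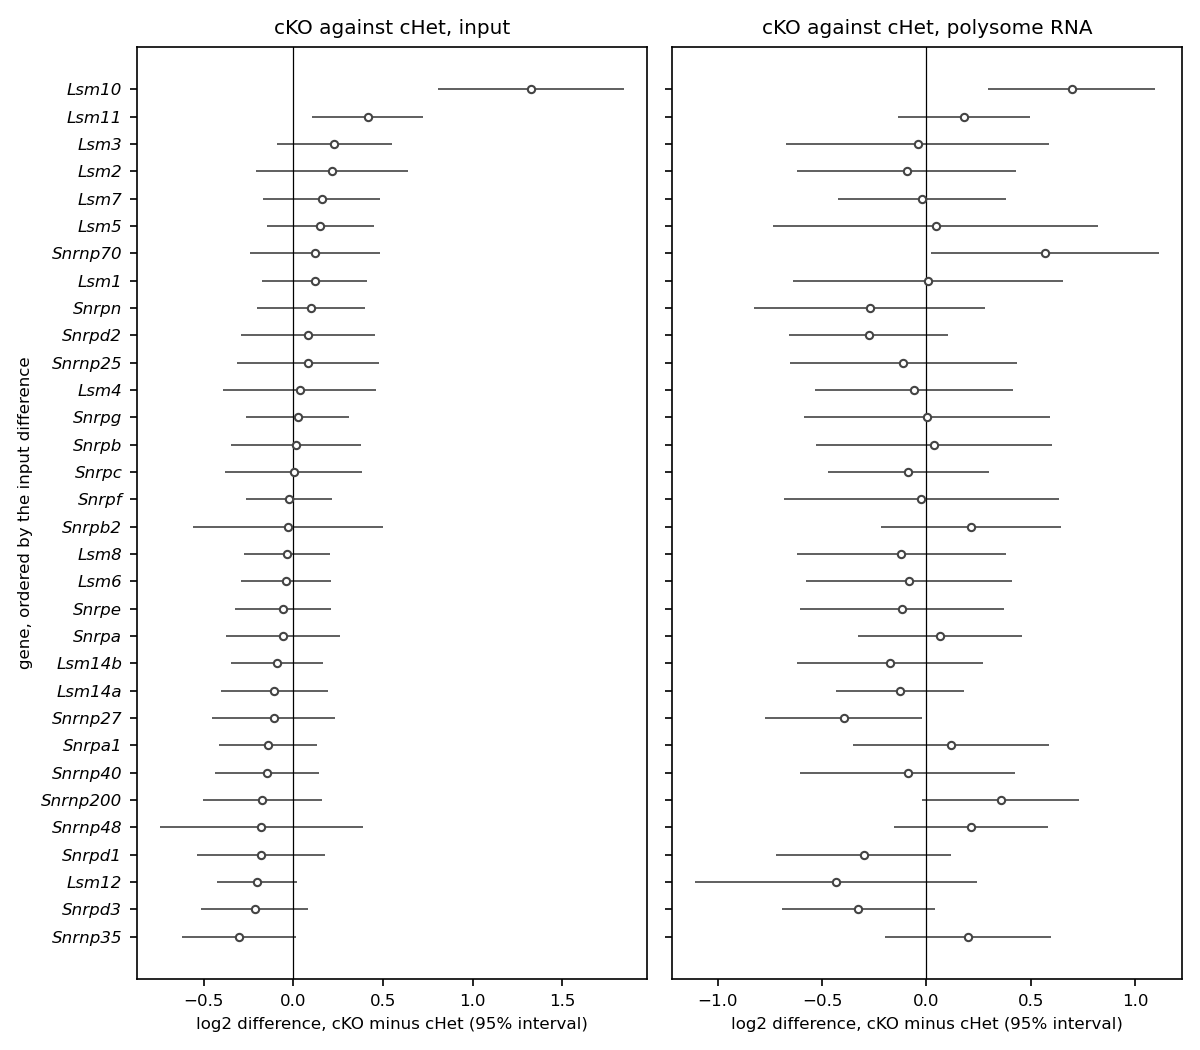
Difference of cKO minus cHet on the log2(FPKM + 0.1) scale with its 95% interval for each of the 32 genes, in input (left) and polysome RNA (right), from limma fits of 6 libraries each, ordered by the input value. All points are drawn open, whatever the test gave, and none of the 32 genes passed an adjusted p of 0.05. Lsm10 has the largest difference of these genes in both panels.

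Summed levels of several marker lists differed between the input groups beside these values. The 13 limb mesenchyme markers summed to 834 to 1017 FPKM in cHet and 1161 to 1403 in cKO input, the 10 epidermis markers to 346 to 353 and 407 to 448, and the 11 macrophage markers to 44.5 to 49.7 and 56.7 to 81.1. The 10 neural and glia markers summed to 17.7 to 19.8 and 20.3 to 26.9. Only 5 of these 10 were tested in input, of which 3 were higher and 2 lower in cKO. Endothelium (73.1 to 81.7 and 65.2 to 96.0) and muscle (480 to 577 and 503 to 624) overlapped. Without cKO input replicate 3 the first 4 lists were still higher in cKO, while endothelium was lower, at 65.2 to 71.6. The 10 erythroid markers summed to 9328 to 23970 FPKM in cHet and 5797 to 14330 in cKO input, and overlapped. All 10 had a lower log2 mean in cKO input, with 0 past the test. Hbb-y, for example, was at 6436, 5806 and 14814 FPKM in cHet input and at 3440, 8532 and 6863 in cKO input. In polysome RNA the macrophage markers summed to 54.8 to 60.7 FPKM in cHet and 71.9 to 99.8 in cKO, the epidermis markers to 185 to 196 and 241 to 465, and the neural and glia markers to at most 13.1 and to 14.6 to 23.6. The limb mesenchyme markers overlapped there (1506 to 1704 and 1456 to 2108), and without cKO polysome replicate 1 the cKO sums were 1891 to 2108. Without that library the cKO polysome sums were 71.9 to 78.5 for macrophage, 241 to 258 for epidermis and 14.6 to 15.7 for neural and glia markers. No marker of these lists was at 0 in all libraries, though 5 neural and glia, 1 macrophage and 1 muscle marker averaged under 1 FPKM. The part of these markers in the values of Lsm10 and Lsm11 was not tested.

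The upstream sequence of the 2 U7 genes is shown because both had their highest input values in cKO. Bases before the transcription start come from RefSeq (GRCm38.p6), which had windows for 26 of the 32 genes; capitals mark a CCAAT box or a GC box, on either strand. The Lsm10 stretch is chr4:126096403-126096622, plus strand, ending where the gene begins in the deposited table, and the Lsm11 stretch is chr11:45944936-45945185, minus strand. Both are written 5′ to 3′ in the direction of the gene.
Lsm10: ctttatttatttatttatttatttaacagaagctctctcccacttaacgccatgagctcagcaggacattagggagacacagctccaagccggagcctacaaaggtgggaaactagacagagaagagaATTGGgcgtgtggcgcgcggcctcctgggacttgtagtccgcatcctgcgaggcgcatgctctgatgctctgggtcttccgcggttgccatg
Lsm11: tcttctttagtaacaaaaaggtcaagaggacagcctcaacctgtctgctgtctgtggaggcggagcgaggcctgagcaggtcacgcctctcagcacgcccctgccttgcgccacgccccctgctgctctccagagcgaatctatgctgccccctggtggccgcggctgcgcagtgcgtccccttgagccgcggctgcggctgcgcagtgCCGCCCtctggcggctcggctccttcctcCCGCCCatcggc
The Lsm10 stretch holds 1 CCAAT box (CCAAT, here as its reverse complement ATTGG) and no GC box, and the Lsm11 stretch holds 2 GC boxes (GGGCGG, here as CCGCCC) and no CCAAT box. Windows covered 250 bases before the start, and 32 of them came from these 26 genes, some of which had more than 1. The 32851 windows of all genes were not limited to expressed genes. A GC box was held by 56.2% of the 32 windows, against 32.7% of all 32851. For the CCAAT box the shares were 28.1% and 33.9%, and for TATAAA 9.38% and 12.4%. These are letter matches and not bound sites.

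The methyltransferase complex that holds METTL14 acts on adenosine in a short sequence context of which GGACT is a common form, so its matches in the 4 genes whose input groups did not overlap were counted. In the annotated transcripts (GENCODE M21, GRCm38), Lsm10 has 2 GGACT matches, both in the 5′ UTR in exon 1 of 2. Snrnp35 has 2, both in the coding part of exon 2 of 2, Lsm11 has 9, of which 3 are coding and 6 lie in the 3′ UTR, and Lsm12 has 4, all in the 3′ UTR. Lsm11 had the most of the 32 genes, in a transcript of 6453 bases. Per kilobase, Lsm11 had 1.39, Lsm10 2.12, Snrnp35 1.79 and Lsm12 1.77, with the most of the 32 genes in Snrpa1 (2.40). The median was 1 match per transcript for the 32 genes and 3 for all genes tested in input. Median transcript lengths were 1204 and 2932 bases, so these counts are not matched for length. The matches of Lsm10 and Snrnp35, shown as the genes with the largest input difference in each direction, at chr4:126096731-126096735, chr4:126096780-126096784, chr5:124490497-124490501 and chr5:124490514-124490518 (all plus strand), read as follows with 10 bases on each side and GGACT in capitals.
Lsm10, first: tcgagagtggGGACTagggcgcgct
Lsm10, second: cactggctgcGGACTtttcttccca
Snrnp35, first: agatattcgtGGACTatgagctaga
Snrnp35, second: gagctagagaGGACTctccgtggct
Whether any of these is methylated was not measured here. The 2 genes higher in cKO have 2 and 9 matches and the 2 lower genes 2 and 4. Lsm10 and Snrnp35 also both have a single coding exon. Among all genes tested in input, the 756 with 1 coding exon had a median log2 difference of 0.17 and 63.4% were higher in cKO, against -0.02 and 47.4% for the 10778 with more.

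In polysome RNA, the comparison of cKO with cHet again found 0 of the 32 genes changed by limma (0% of all genes, 0 of 12877) and 0 by voom. At an unadjusted p under 0.05, 2 genes were higher and 1 lower, against 12.9% and 8.37% of all genes. The groups did not overlap for Lsm10 and Snrnp200 (both higher in cKO), nor for Snrpd2, Snrpd3, Snrnp27 and Lsm14a (all lower), against 17.9% and 13.5% of all genes.

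Snrnp27, a protein of the U4/U6.U5 tri-snRNP, was at 72.1, 66.2 and 69.0 FPKM in cHet polysomes and at 44.4, 52.5 and 61.8 in cKO polysomes, a log2 difference of -0.40 ± 0.16 (SE; limma adjusted p = 0.214). Snrnp70, the U1 protein that binds the first stem-loop of U1 snRNA, was at 21.2, 17.7 and 18.4 FPKM in cHet and at 41.2, 20.9 and 26.1 in cKO. The Snrnp70 groups overlapped, its log2 difference was 0.57 ± 0.24 (SE; limma adjusted p = 0.221), and its high value was in cKO polysome replicate 1, the library that stood apart. Without that library the Snrnp70 difference was 0.30 (limma adjusted p = 0.29). Snrnp200, the helicase that unwinds U4 from U6 snRNA, was at 5.01, 5.58 and 5.19 FPKM in cHet and at 8.39, 6.51 and 5.63 in cKO, again with its highest value in that library (log2 difference 0.36 ± 0.16, SE; limma adjusted p = 0.254). Without that library the Snrnp200 difference was 0.20 (limma adjusted p = 0.393). Snrnp27 had its lowest cKO value there, and its difference without that library was -0.28 (limma adjusted p = 0.267).

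The comparison of polysome with input RNA within cHet asks which mRNAs were enriched on translating ribosomes. Of the 32 genes, 17 rose on polysomes and 4 fell (limma, adjusted p under 0.05), against 27.3% and 25.9% of all 13610 genes (53.2% in either direction). The median log2 difference was 0.58 for the 32 genes and 0.02 for all genes. Most increases were in the rings: 7 of 8 LSm ring genes (median 1.00) and 6 of 8 Sm core genes (median 0.97) rose and none of them fell. The decreases were in U1 (Snrnp70, Snrpa), the minor spliceosome (Snrnp35) and U5 (Snrnp200). The 2 groups did not overlap for 20 genes that were higher and 4 that were lower, against 38.1% and 37.2% of all genes.

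Among the Sm core genes, Snrpd3 was at 53.4, 56.3 and 55.6 FPKM in cHet input and at 161, 146 and 144 in cHet polysomes, which gives a log2 difference of 1.44 ± 0.14 (SE; limma adjusted p = 8.04e-05). Snrpd2 was at 88.6, 95.7 and 92.1 FPKM and at 241, 239 and 228, a log2 difference of 1.36 ± 0.16 (SE; limma adjusted p = 0.000119). Snrpd1, at 369, 330 and 349 FPKM on polysomes, rose by 1.25 ± 0.17 on the log2 scale (SE; limma adjusted p = 0.000195). These 3 SmD genes had the largest differences of the core. Snrpe rose by 1.05, Snrpn by 0.89 and Snrpf by 0.65 on the log2 scale. Snrpg (log2 difference 0.54; limma adjusted p = 0.0536) and Snrpb (0.31; limma adjusted p = 0.249) did not pass.

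Snrpb and Snrpn encode closely related proteins of the same ring position. Snrpb was at 157, 146 and 167 FPKM in cHet input and at 198, 150 and 245 on cHet polysomes, and the groups overlapped. Snrpn was at 8.57, 8.92 and 8.48 FPKM and at 16.2, 17.0 and 15.2, with no overlap (log2 difference 0.89 ± 0.21, SE; limma adjusted p = 0.00409). The difference between the paralogs was not tested. The Snurf gene, which overlaps Snrpn on the same strand, is listed at 0 in all libraries.

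Among the LSm ring genes, Lsm7 had the largest difference of the 32 genes. It was at 43.1, 41.7 and 44.3 FPKM in cHet input and at 149, 126 and 133 on cHet polysomes, a log2 difference of 1.65 ± 0.16 (SE; limma adjusted p = 7.72e-05). As given above, most of its sequence is shared with Gm10146. Lsm4, which shares none, was at 155, 158 and 154 FPKM in input and at 356, 375 and 361 on polysomes, a log2 difference of 1.23 ± 0.20 (SE; limma adjusted p = 0.00051). Lsm3 rose by 1.13, Lsm8 by 1.09, Lsm2 by 0.90, Lsm6 by 0.70 and Lsm1 by 0.62 on the log2 scale. Lsm8 is particular to the nuclear ring and Lsm1 to the cytoplasmic one. Lsm5 alone of the ring did not pass (log2 difference 0.21; limma adjusted p = 0.564), with polysome values of 37.4, 53.7 and 32.2 FPKM against 35.4, 32.6 and 36.5 in input.

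Proteins of single particles were mixed. Snrnp27 was at 24.0, 24.8 and 25.7 FPKM in cHet input and at 72.1, 66.2 and 69.0 on cHet polysomes, a log2 difference of 1.47 ± 0.16 (SE; limma adjusted p = 9.54e-05). Snrnp200, in the same tri-snRNP group, was at 14.1, 12.3 and 16.4 FPKM in input and at 5.01, 5.58 and 5.19 on polysomes, a log2 difference of -1.41 ± 0.16 (SE; limma adjusted p = 0.000106). The fractions did not overlap in either gene, and the directions were opposite. Snrnp40, the U5 WD-repeat protein, did not pass (log2 difference 0.17).

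Of the minor spliceosome proteins, Snrnp25 was at 46.7, 44.7 and 46.0 FPKM in cHet input and at 88.2, 92.6 and 80.9 on polysomes (log2 difference 0.93 ± 0.22, SE; limma adjusted p = 0.00433). Snrnp35 fell by 0.52 on the log2 scale, and Snrnp48 did not pass (log2 difference -0.04). Of U1, Snrpc rose by 0.44, while Snrnp70 fell by 0.72 and Snrpa by 0.41 on the log2 scale. The U2 proteins Snrpa1 and Snrpb2 lay at 0.07 and -0.01. Lsm10 rose by 0.95 (limma adjusted p = 0.00251) and its partner Lsm11 did not pass (log2 difference -0.04). Of the LSm domain genes outside the rings, Lsm12 (log2 difference 0.37), Lsm14a (0.28) and Lsm14b (0.18) did not pass.

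**Figure D4:**
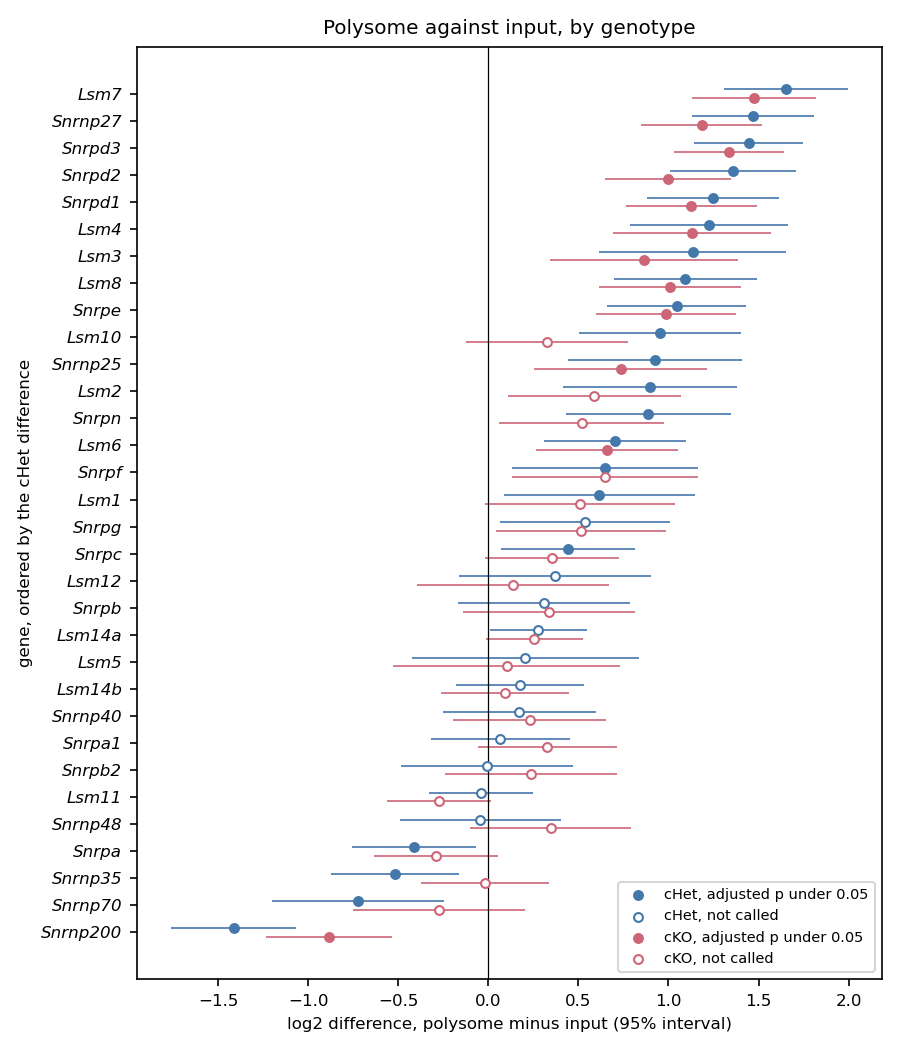
Difference of polysome minus input on the log2(FPKM + 0.1) scale with its 95% interval for each of the 32 genes in cHet (blue) and cKO (red), ordered by the cHet value, from 1 limma fit of 12 libraries; filled points passed an adjusted p of 0.05. Lsm7 lies highest and Snrnp200 lowest in both genotypes.

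Several cHet calls were not stable. Snrpf, Snrpa, Lsm1 and Snrpc lost their call under 8 to 12 of 23 alternatives each, most often when a library was left out. Snrpa and Snrpc also lost it with the lysate as a block, which left 19 genes changed (16 higher, 3 lower). Of all 13610 genes, the block called 3842 higher and 3583 lower. Snrnp35 lost its call under 3 alternatives and Snrnp70 under 2. Scaling each library to its protein-coding FPKM moved the median of all genes by -0.23 and the share of higher genes among all calls from 51.3% to 35.0%. Under it 14 of the 32 genes were higher and 4 lower, against 18.1% and 33.6% of all genes.

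Within cKO, 11 of the 32 genes rose on polysomes and 1 fell (limma, adjusted p under 0.05), against 16.9% and 15.6% of all genes (32.5% in either direction). The 11 were Snrpd1, Snrpd2, Snrpd3, Snrpe, Lsm3, Lsm4, Lsm6, Lsm7, Lsm8, Snrnp25 and Snrnp27, each of which also rose in cHet, and Snrnp200 fell in both. The median log2 difference was 0.43 for the 32 genes and 0.06 for all genes. The fractions did not overlap for 10 genes that were higher and 1 that was lower, against 18.5% and 16.5% of all genes.

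Lsm7 was at 42.8, 44.8 and 57.8 FPKM in cKO input and at 118, 124 and 163 on cKO polysomes (log2 difference 1.47 ± 0.16, SE; limma adjusted p = 0.000207). Snrpd3 was at 47.6, 54.0 and 41.4 FPKM and at 119, 105 and 137 (log2 difference 1.34 ± 0.14, SE; limma adjusted p = 0.00018). Lsm4, with 133, 144 and 211 FPKM in input and 264, 361 and 447 on polysomes, rose by 1.13 ± 0.20 on the log2 scale (SE; limma adjusted p = 0.00212). In each of these 3 genes every polysome library lay above every input library. Snrnp27 rose by 1.18, Snrpd1 by 1.13, Lsm8 by 1.01, Snrpd2 by 1.00 and Snrpe by 0.99 on the log2 scale, and Snrnp200 fell by 0.88.

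The cKO count changed with the library that stood apart. In cKO polysome replicate 1, Lsm8 was at 22.2 FPKM against 36.4 and 36.6 in the other replicates, Snrpf at 97.8 against 202 and 199, and Snrpg at 112 against 206 and 198. Without it, 20 of the 32 genes were changed (17 higher, 3 lower), against 22.4% higher and 22% lower of all genes. Without both libraries that stood apart 23 were (20 higher, 3 lower), against 29.5% and 30% of all genes. The lysate block gave 15 genes, adding Snrpf, Lsm2 and Snrpn, and called 2467 higher and 2012 lower of all 13610 genes. With protein-coding scaling 11 genes were higher and 2 lower, against 12.4% and 19.8% of all genes. The share of higher genes among all calls went from 52.1% to 38.4% there, while the median of all genes moved by -0.13.

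The polysome difference varied with coding length. The 18 genes with up to 160 codons (76 to 159) all had higher polysome than input values in cHet, 16 of them past the test, with a median log2 difference of 1.00. Of the 14 genes with 195 to 2136 codons, 7 values were positive and 7 negative in cHet; 1 rose (Snrpn), 4 fell and 9 did not pass, with a median of 0.03. The limit of 160 codons lies in the gap between Snrpc (159 codons) and Lsm12 (195), and was set with the values known. In cKO, 11 of the 18 short genes rose and none fell, and among the 14 longer genes 0 rose and 1 fell, with 9 values positive and 5 negative. Of all genes, 27.3% rose and 25.9% fell in cHet, and 16.9% and 15.6% in cKO. The counts by length class were not set against all genes of the same coding length.

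Across the 32 genes, Spearman's rho between codons and the log2 difference was -0.66 in cHet and -0.65 in cKO. Across the 11876 tested genes with a coding transcript it was -0.66 and -0.61, so the relation was about the same size without regard to family. These are descriptions across genes, which share the 12 libraries and are not independent replicates. Snrnp200 is the longest member at 2136 codons and had the most negative difference. Snrpg, the shortest at 76 codons, had smaller differences (0.54 and 0.52) than the median of the short genes. It did not pass in either genotype, but passed in both without cKO polysome replicate 1 (limma adjusted p = 0.0058 and 0.00177). In cHet its difference was still 0.54 there, and only the SE changed, from 0.22 to 0.13.

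**Figure D5:**
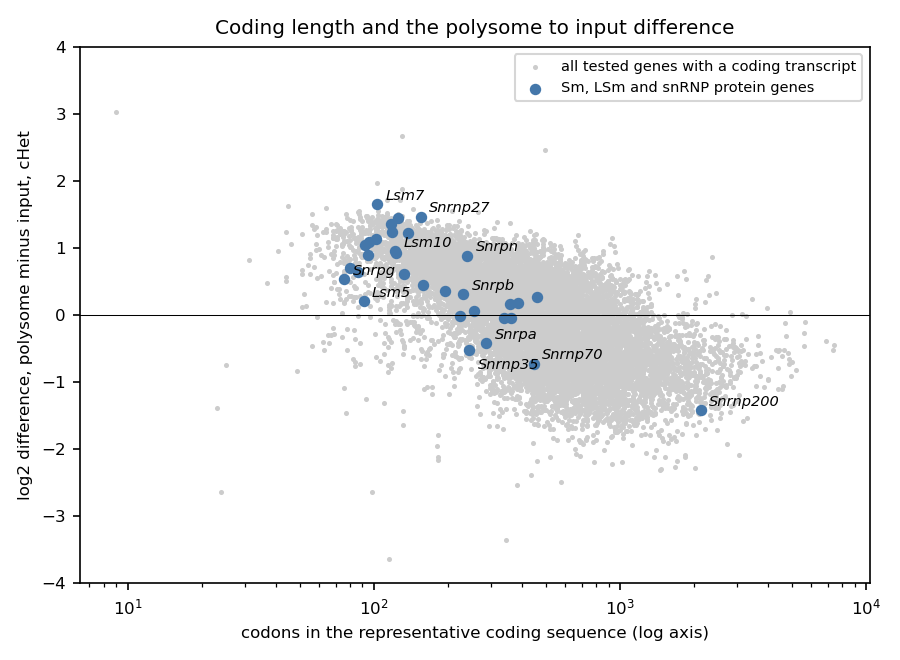
Difference of polysome minus input in cHet, on the log2(FPKM + 0.1) scale, against the number of codons of the representative transcript (log axis), 1 point per gene, with the 32 genes in blue over all tested genes with a coding transcript in grey. The short Sm and LSm genes lie at the upper left and Snrnp200 at the lower right of the same slope as the other genes.

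The last comparison asks whether the polysome to input difference itself differed between the genotypes. Of the 32 genes, 0 passed (limma on 12 libraries; 0% of all 13610 genes), 0 passed by voom, and the lowest adjusted p was 0.79. At an unadjusted p under 0.05, 1 gene was higher and 0 lower, against 2.92% and 1.76% of all genes. That gene was Snrnp200, whose polysome decrease was smaller in cKO, with an interaction of 0.53 ± 0.23 (SE, log2; 95% interval 0.04 to 1.02).

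For Snrnp200 the log2 ratio of polysome to input within each lysate was -1.47, -1.13 and -1.64 in cHet and -0.45, -0.99 and -1.21 in cKO, and the groups overlapped. For Lsm10 the ratios were 0.86, 1.10 and 0.90 in cHet and -0.08, 0.87 and 0.18 in cKO, with an interaction of -0.63 ± 0.29 (SE, log2; 95% interval -1.26 to 0.01). Without both libraries that stood apart the interaction was 0.41 for Snrnp200 and -0.29 for Lsm10. Snrnp35 had an interaction of 0.50 ± 0.23 and Snrpd2 one of -0.36 ± 0.23 (SE, log2), which were 0.33 and -0.08 without both libraries. The remaining intervals are wide as well: that of Lsm4 was -0.71 to 0.52 and that of Snrpf -0.73 to 0.73.

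By sign, 22 of the 32 interaction values were negative, and 17 of the 18 genes with up to 160 codons were (-0.63 to 0.00), while 9 of the 14 longer genes were positive. The median was -0.09 for the 32 genes and 0.02 for all genes. The count for the short genes changed with the libraries used: without cKO polysome replicate 1 it was 8 of 18, and without both libraries that stood apart 6 of 18. It was 11 of 18 with protein-coding scaling or without cHet polysome replicate 2. Across the 11876 tested genes with a coding transcript, Spearman's rho between codons and the interaction was 0.46, and across the 32 genes 0.40, both from all 12 libraries and given as descriptions.

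The partners of these proteins were also compared. Of 66 genes in 7 lists of snRNP assembly, splicing and decay partners, 63 were tested; in cHet 11 rose on polysomes (17.5%, against 27.3% of all genes) and 33 fell (52.4%, against 25.9%). In cKO 9 rose (14.3%, against 16.9%) and 19 fell (30.2%, against 15.6%). None changed between genotypes in input, in polysome RNA or in the interaction by limma; at an unadjusted p under 0.05 6 were higher and 2 lower in input (9.52% and 3.17%, against 10.4% and 4.53% of all genes). In polysome RNA 12 were higher and 0 lower (19% and 0%, against 12.9% and 8.37%), and in the interaction 9 and 0 (14.3% and 0%, against 2.92% and 1.76%). These counts also moved with the libraries that stood apart. Without both, 32 of the 63 fell in cKO (30% of all genes) and 10 were higher in the interaction (4.71% of all genes). Without cKO polysome replicate 1 alone, 28 fell in cKO (22% of all genes) and 3 were higher in the interaction (1.51% of all genes). Without cKO input replicate 3, 8 of the 63 were higher and 14 lower in input at an unadjusted p under 0.05, against 15.7% and 14.4% of all genes. There 1 was called higher by limma, against 1.94% of all genes.

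By list, the following counts are for cHet polysomes, where 27.3% of all genes rose and 25.9% fell. The part of coding length in the values of these partners was not tested. The SMN complex, which loads the Sm ring onto snRNA, had 2 genes higher and 2 lower of 8 tested in cHet. Gemin6 rose by 1.04 on the log2 scale, and Gemin5, the large snRNA-binding subunit, fell by 1.37. Gemin5 went from 8.28 ± 0.68 to 3.13 ± 0.17 FPKM (SD, n = 3). Among the 9 genes for Sm methylation, cap modification and import, 1 rose and 4 fell: Prmt5, the arginine methyltransferase of the Sm proteins, fell by 0.91, Kpnb1, the import receptor importin beta, fell by 1.17, and Clns1a, the chaperone of free Sm proteins, rose by 0.74 on the log2 scale.

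Of the 12 U2-associated SF3A, SF3B and U2AF genes, 3 rose and 8 fell on cHet polysomes (27.3% and 25.9% of all genes). Sf3b6 was at 1.39 and Sf3b2 at -1.45 on the log2 scale. Of the 14 tested partners of the tri-snRNP, 3 rose and 8 fell. Prpf8, the large protein at the catalytic centre, fell by 1.56, and Eftud2, the U5 GTPase, fell by 1.47 on the log2 scale. Of 5 other minor spliceosome genes 2 rose (Zmat5 by 1.25, Zrsr2 by 0.99) and 1 fell (Pdcd7, by 0.52 on the log2 scale).

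The histone pre-mRNA processing genes act with U7 snRNP. On cHet polysomes 0 were higher and 6 lower of 7 tested, against 27.3% and 25.9% of all genes. The scaffold Sympk fell by 1.58 and Cpsf1 by 1.78 on the log2 scale. In cKO 0 were higher and 4 lower, against 16.9% and 15.6% of all genes. In input all 7 were lower in cKO than in cHet, as were 6675 of all 12977 genes tested. At an unadjusted limma p under 0.05, 1 of the 7 was lower and 0 higher. None passed the test (lowest limma adjusted p = 0.276). The median log2 difference of the 7 in input was -0.25. Without cKO input replicate 3, 5 were lower and 2 higher (Casp8ap2 and Cpsf2). The decapping partners of the cytoplasmic LSm ring had 0 higher and 4 lower of 8 on cHet polysomes, including the scaffold Edc4, which fell by 1.47 on the log2 scale.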

How the data were processed

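The authors deposited FPKM values for 54532 genes in 12 libraries, made with HISAT2 2.0.5 and featureCounts 1.5.0-p3 on mm10, per the submitters' processing notes; strand setting and multi-mapping are not given in the sources used here. Since FPKM is relative to the library, a value also moves with the other genes in it. FPKM times length returned whole reads within 0.01 for 100% of values above 0, which gives depth.

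The log2(FPKM + 0.1) values were fitted in limma 3.58.1 (R 4.3.3, intensity trend) on all genes at 1 FPKM or more in at least 3 fitted libraries; such differences understate changes of low genes. Genotypes were compared on 6 libraries per fraction; fractions and the interaction on all 12. All tests are two-sided, adjusted by Benjamini-Hochberg over all genes tested, and called under 0.05. The script was tested on simulated data.

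Members and lists were chosen with earlier results of these data known. Given by library were the up to 6 called members with the largest change per comparison (else the 4 with the smallest p), each particle's highest gene, Snrpb, Snrpn, Lsm10 and Lsm11; a few others illustrate a library or an overlap and were chosen after their values were seen. Up to 3 called genes per partner list are named.

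Polysomes were purified from the cytoplasmic fraction, so same-numbered input and polysome libraries of a genotype were read as 1 lysate; their deviations correlated at 0.0525 to 0.249 across genes. Transcripts and exons are from GENCODE M21, whose coordinates matched for all members but Snrpd1.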

Additional observations from a re-analysis of the deposited data

How the results depend on the processing

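Alternatives were other pseudocounts (0.01, 1), an FPKM minimum of 5 or none, median-ratio and protein-coding scaling, voom, removal of the gene length trend, other sets of fitted libraries, the replicate block and leaving out libraries. The differences of genes named by rule as called, or with the smallest p, kept their sign under all of them in that comparison; smaller differences, such as those of Snrpb2 in input and Lsm4 in the interaction, did not.

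In input, the count of changed genes among the 32 was 1 (Lsm10) when fitted on all 12 libraries, and 0 to 1 when a library was left out. In polysome RNA it was 0 to 1 when a library was left out, the 1 again being Lsm10. Polysome against input gave 16 to 23 in cHet and 9 to 20 in cKO when a library was left out. It gave 23 in cKO without both libraries that stood apart, and the interaction gave 0 in each. The share of all genes called moved as well. Without both libraries, 36% of all genes rose and 35.7% fell in cHet, and 29.5% and 30% in cKO. Without cKO polysome replicate 1 the cHet differences kept their size and only their SE changed, for Snrpg from 0.22 to 0.13. In the main fit and in these leave-out fits, 1 spread per gene was estimated over all the libraries used, from both genotypes. The SE in cHet therefore also holds the spread of the cKO libraries. Other causes were not tested, and fits with fewer libraries rest on fewer values.

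With the replicate block, polysome against input gave 19 genes in cHet and 15 in cKO, and the other comparisons 0. Between genotypes the numbers are only numbers: deviations of same-numbered libraries correlated at -0.281 to 0.165, and the block gave a limma adjusted p of 0.237 for Lsm10 in input. Each member had at least 128 reads per library; depth and 3 libraries per group both limit precision. The marker sums, coefficients of variation, histone gene signs, interaction signs and partner counts given without libraries or under other scalings were chosen after seeing the data.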
